A study of Mus musculus with 10 samples.

Results

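Ribosome biogenesis and RNA polymerase I genes were described in blood stem cell-enriched marrow cells after deletion of Mll, a methyltransferase of histone H3 that is named Kmt2a in current annotation. The 50 genes were taken from a list of symbols and make up 50 of the 18193 genes named by a probe set of the array, and all 50 were among the 12580 genes bright enough to be tested. Each gene was read from its brightest probe set, the group of short array probes that reports 1 transcript. The list holds 3 proteins of box C/D and 4 of box H/ACA small nucleolar ribonucleoproteins (snoRNPs), 6 abundant nucleolar proteins, 14 proteins of the small subunit processome, 4 factors of late small subunit maturation, 13 of large subunit assembly, and 6 subunits or factors of RNA polymerase I.

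The study compared 5 Mx1-cre;Mll F/F mice, here called Mll-deficient, with 5 control mice of genotype Mll F/F, 1 array each. All 10 were females of 8 weeks on a B6.SJL-Ptprca Pep3b/BoyJ background. All received pI:pC, a double-stranded RNA that raises interferon and thereby switches on the Mx1 promoter driving cre, in 3 injections 48 hours apart at 10 µg per gram of mouse plus 50 µg, and LSK/CD48- cells were sorted on day 6. Cre was present in 1 group only, so cre and loss of Mll cannot be told apart, and pI:pC was shared by both groups. RNA from 1500 to 10000 cells was amplified before labelling, and the labels call the samples biological replicates.

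Ribosome production begins in the nucleolus, where RNA polymerase I transcribes the precursor of the large ribosomal RNAs. snoRNPs then modify this precursor at guided positions, and the small subunit processome folds and cuts it. Separate sets of helicases, GTPases and scaffold proteins assemble the large and the small subunit. Adult blood stem cells are known for low protein synthesis compared with the progenitors they give rise to, and Myc, which binds the E-box CACGTG with its partner Max, is a known activator of nucleolar genes.

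Promoter sequences are shown for the 4 called genes with the smallest p, to show which short motifs they do and do not hold. The stretches are the 250 bases before the RefSeq start of each gene (GRCm38.p6), written 5′ to 3′ on the gene's strand. Capitals mark matches on either strand to CACGTG (the E-box), CCGGAAG, the NRF1 palindrome or TATAAA (the TATA box). CCGGAAG, a string bound by ETS factors, is here called the ETS motif, and shorter strings around GGAA were not counted. They lie at chr10:62602299-62602548 on the minus strand for Ddx21, and on the plus strand at chr19:46075597-46075846 for Nolc1, chr2:130274162-130274411 for Nop56 and chr11:51619523-51619772 for Nhp2.
Ddx21: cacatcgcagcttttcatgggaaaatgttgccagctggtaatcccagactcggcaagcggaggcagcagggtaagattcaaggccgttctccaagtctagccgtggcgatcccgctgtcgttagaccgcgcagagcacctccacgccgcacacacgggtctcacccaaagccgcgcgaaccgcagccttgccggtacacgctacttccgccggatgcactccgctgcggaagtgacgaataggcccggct
Nolc1: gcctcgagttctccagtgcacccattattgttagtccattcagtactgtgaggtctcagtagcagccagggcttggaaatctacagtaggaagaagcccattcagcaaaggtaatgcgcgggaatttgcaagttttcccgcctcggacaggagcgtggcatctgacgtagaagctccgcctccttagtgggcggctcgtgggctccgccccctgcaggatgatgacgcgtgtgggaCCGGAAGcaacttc
Nop56: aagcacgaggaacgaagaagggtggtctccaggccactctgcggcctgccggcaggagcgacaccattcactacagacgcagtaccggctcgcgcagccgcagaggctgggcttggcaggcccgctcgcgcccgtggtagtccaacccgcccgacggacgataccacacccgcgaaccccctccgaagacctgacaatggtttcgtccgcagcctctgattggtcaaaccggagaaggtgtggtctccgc
Nhp2: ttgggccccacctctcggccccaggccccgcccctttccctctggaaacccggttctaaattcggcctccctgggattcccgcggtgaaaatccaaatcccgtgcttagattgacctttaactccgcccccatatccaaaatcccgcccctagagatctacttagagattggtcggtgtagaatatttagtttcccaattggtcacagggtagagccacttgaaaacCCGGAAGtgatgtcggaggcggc
The ETS motif stood in Nolc1, 14 to 8 bases before the start, and in Nhp2, 23 to 17 bases before it. The stretches of Ddx21 and Nop56 held none of the 4 motifs. Promoter entries were matched for 45 of the 50 genes.

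E-boxes of the listed genes were more often found just after the start than before it. In the whole window of 300 bases, from 250 before to 50 after the start, 11 of 45 genes (24.4%) held CACGTG, against 11.6% of the 10196 tested genes with an entry and 8.09% of all 27025 genes with one. Of the 11 sites, 8 lay after the start and 3 before it. The share of tested genes with an E-box in the 50 bases after the start was not counted. Whether this placement is particular to the listed genes was therefore not examined. In the 250 bases before the start alone, 3 of 45 genes (6.67%) held it, against 9.83% of tested genes. The 5 called genes with an E-box in the window are shown as 30 bases each around the site, with the E-box in capitals.
Mybbp1a: aagtgactgtcttctgagccCACGTGtttg
Pno1: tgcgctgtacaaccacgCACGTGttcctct
Utp20: cccagcggcactaactaCACGTGaggaaaa
Nop2: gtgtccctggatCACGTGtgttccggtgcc
Nle1: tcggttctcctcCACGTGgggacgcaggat
The site began 41 bases after the start in Mybbp1a, 38 in Pno1, 38 in Utp20 and 24 in Nle1, and 60 bases before it in Nop2. The ETS motif was in the 300 bases of 16 of 45 genes (35.6%), against 19.3% of tested genes. The NRF1 palindrome was in 1 (2.22%, against 2.3%) and the TATA box in 2 (4.44%, against 9.15%). Each motif was counted by itself, whether or not it overlapped another. The 11 genes with an E-box had a median log2 difference of 0.77 and the 34 without one of 0.82, and 5 of 11 and 11 of 34 were called higher. A match is a string of letters and was not tested as a binding site.

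Ribosome biogenesis genes were higher in Mll-deficient cells as a group of measurements, and none was called lower. Nolc1, Nob1, Pno1, Nhp2, Ddx21, Bop1 and Nop56 rose by between 1.17 and 1.52 on the log2 scale. Differences throughout are Mll-deficient minus control on the scale log2(signal + 16), with the standard error (SE) of the limma fit, and a gene was called when its p, adjusted by the Benjamini-Hochberg method over all tested genes, was under 0.05. Of the 50 genes 19 were called higher and 0 lower, where 3.76% of all tested genes were called higher and 1.76% lower. With arrays centred on their medians, 19 were called higher, 18 of them also called before, where 3.74% of tested genes were called higher and 107 genes, in place of 221, lower. The difference was above 0 for all 50, compared with 46.6% of tested genes. It was above 0 for 49 with quantile normalization, where Bms1 was at -0.00, for 49 with the mean of all probe sets, where Taf1d was at -0.01, and for 48 without control replicate 1. The median difference was 0.79, beside -0.04 for all tested genes. The unadjusted p was under 0.05 for 38 of the 50, all of them higher, where 10.5% of tested genes reached this on the higher and 10.2% on the lower side.

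**Figure D1:**
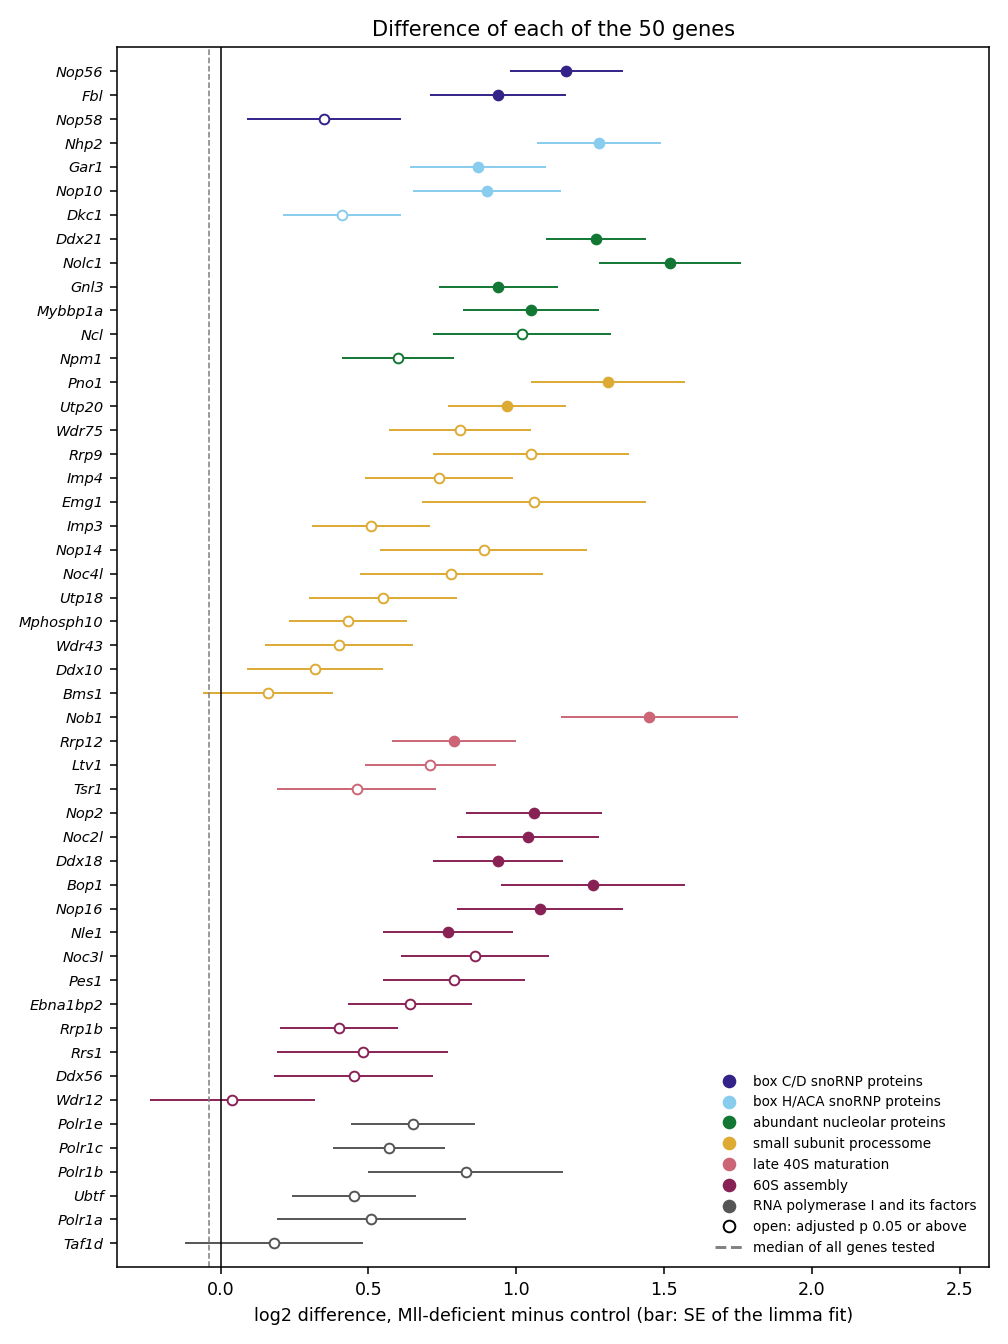
Log2 difference (Mll-deficient minus control, horizontal axis) of each of the 50 genes, coloured by role, with the SE of the limma fit as bars, filled points for the 19 called genes and a dashed line at the median of all genes tested, -0.04. All 50 points lie to the right of 0, from Wdr12 at 0.04 to Nolc1 at 1.52, and no RNA polymerase I gene is filled.

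The mean of the 50 genes on each array separated the groups. It was 8.77, 9.16, 8.99, 9.07 and 8.79 in control replicates 1 to 5 and 9.69, 9.76, 9.63, 9.73 and 9.84 in Mll-deficient replicates 1 to 5, on the log2 scale. Every Mll-deficient array lay above every control array, while the mean over all tested genes stayed between 7.53 and 7.58 on all 10. The role groups behaved alike in this respect: for all 7, the lowest Mll-deficient array mean was above the highest control one, with the narrowest gaps for RNA polymerase I (9.44 against 9.53) and box C/D snoRNP proteins (9.87 against 9.99). Taken gene by gene, 20 of the 50 had every Mll-deficient array above every control array and 0 had every one below, where 4.42% and 2.54% of tested genes did so.

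**Figure D2:**
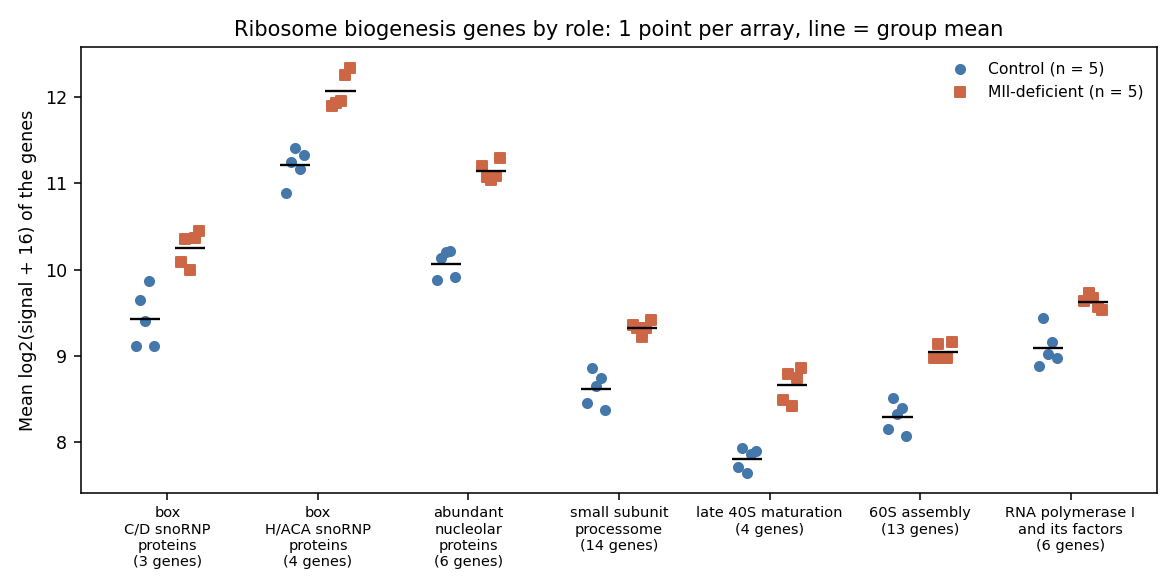
Mean log2(signal + 16) of the genes of each role (vertical axis) on each of the 5 control (circles) and 5 Mll-deficient arrays (squares), with lines at the group means. In each of the 7 roles all squares lie above all circles, and levels of different roles are not comparable because probe sets differ in brightness.

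The arrays differed in a measure used for RNA quality and in median signal. All had been scaled to the same trimmed mean, but the median signal ran from 18.1 to 28.9. Correlations between arrays over tested genes ranged from 0.896 to 0.969, and the log2 ratio of 3′ to middle probe sets of Gapdh and Actb, which rises as RNA is shortened, averaged 2.95 ± 1.41 for the controls and 3.14 ± 0.60 for Mll-deficient mice (SD, n = 5 each). The RNA was amplified before labelling, so the ratio does not tell RNA breakdown from shortening during amplification. Control replicate 5 stood apart with a ratio of 5.19, and it was the lowest control for 23 of the 50 genes and the highest for 15. The 2 probe sets of Kmt2a, whose position relative to the deleted part was not analysed here, overlapped between the groups, with the brighter one at 170 to 399 in controls and 52.2 to 304 in Mll-deficient mice, so they did not check the labels. Of 7 gate and stem cell genes with a probe set, all were bright enough to be tested. Mecom and Hlf were called lower, as were 1.76% of all tested genes. The difference was below 0 for 6 of the 7, with a median of -0.73. An unadjusted p under 0.05 was reached by 5, where 10.2% of tested genes did so on the lower side. Kit was lower without overlap but did not pass (-0.73 ± 0.27, adjusted p = 0.132).

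The count of called genes moved with single arrays. It was 10, 11 and 10 without control replicate 1, Mll-deficient replicate 1 and Mll-deficient replicate 5, and 24 without control replicate 5, where 2.09%, 2.45%, 1.93% and 4.42% of tested genes were called higher. The median difference of the 50 genes stayed between 0.74 and 0.82 in 10 leave-one-out fits, each without 1 array. With the 3′ to middle ratio as a covariate 34 of the 50 were called higher, as were 7.72% of tested genes. Of the 19 called genes, 10 kept their call in every one of these: Nop56, Nhp2, Ddx21, Nolc1, Gnl3, Mybbp1a, Pno1, Utp20, Nob1 and Nop2.

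Erythroid genes rose on the same arrays. Of 12 erythroid genes tested 10 rose, among them Klf1, with a summed signal of 4100 to 7400 in controls and 17500 to 20300 in Mll-deficient mice. Hba-a1 was too dim to be tested, and none of the erythroid genes read here was listed at 0. Of 11 granulocyte and monocyte genes tested 0 were called, 9 had a difference above 0 and 2 below, and 3 had an unadjusted p under 0.05. Their median was 0.16, and their summed signal was 99500 to 160000 in controls and 111000 to 181000 in Mll-deficient mice. Of 6 megakaryocyte and 6 lymphoid genes tested, 0 were called higher or lower. Of 16 S phase genes 4 rose, 15 had a difference above 0 and 8 an unadjusted p under 0.05, with a median of 0.43. The summed signal of the 16 was 36300 to 55600 in controls and 45700 to 60100 in Mll-deficient mice. Over all tested genes 3.76% were called higher, 46.6% had a difference above 0, and the median was -0.04. An unadjusted p under 0.05 was reached by 10.5% of them on the higher side. Myc rose as well, from 300, 433, 484, 556 and 331 in the controls to 802, 623, 620, 664 and 959 in Mll-deficient mice (difference 0.79 ± 0.22, adjusted p = 0.0455), a call lost in 9 of 10 leave-one-out fits and in 4 of 12 other settings, namely median centring, no filter, no intensity trend and the replicate block. The part of these genes, or of the cells that express them, in the ribosome biogenesis result was not tested. In sorted bulk RNA, more cells of a type and more RNA of a gene per cell cannot be told apart.

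Of 6 abundant nucleolar proteins, 4 rose and 2 did not pass, and control and Mll-deficient arrays were fully separate for each of the 6. The shares to set beside these and the role counts below were, over all tested genes, 3.76% called higher and 4.42% separate and higher. Ddx21, an RNA helicase of the nucleolus that binds ribosomal RNA, read 504, 572, 593, 531 and 530 in control replicates 1 to 5 and 1420, 1240, 1230, 1280 and 1520 in Mll-deficient replicates 1 to 5. The difference was 1.27 ± 0.17 (SE, limma adjusted p = 0.000737), larger than the spread within either group. A second, dimmer probe set of Ddx21 had 199 ± 80.6 and 314 ± 131 and was not called (0.60 ± 0.32, adjusted p = 0.326 over all tested probe sets). Nolc1, a phosphoprotein that escorts snoRNPs, read 324, 573, 337, 618 and 292 in controls and 1490, 1220, 1160, 952 and 1230 in Mll-deficient mice. Its difference of 1.52 ± 0.24 (adjusted p = 0.00186) was the largest of the 50, and another of its probe sets stood at 1.72 ± 0.27 (adjusted p = 0.00212 over all tested probe sets), with the dimmest at 0.40 ± 0.35.

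Gnl3, or nucleostemin, a GTPase of the nucleolus found in stem and tumour cells, read 874, 1270, 1230, 1210 and 1640 in controls and 2620, 2100, 2040, 2470 and 2630 in Mll-deficient mice (0.94 ± 0.20, adjusted p = 0.0125). Mybbp1a, a Myb-binding protein of the nucleolus, rose by 1.05 ± 0.23 (adjusted p = 0.0137), from 1110 ± 321 to 2260 ± 382 (SD, n = 5 each). The mean of its probe sets ended that call (0.47, adjusted p = 0.168), since a dim one that averaged 17.7 in controls stood at -0.11. Ncl, which encodes nucleolin, read 1310, 1160, 1120, 1030 and 353 in controls and 1730, 2330, 1490, 1910 and 1970 in Mll-deficient mice, and control replicate 5 was the single low array of the controls. Its difference of 1.02 ± 0.30 narrowly missed the threshold (adjusted p = 0.0543). Without control replicate 5 it was smaller, 0.69, but called (adjusted p = 0.0330). Ncl was also called in 5 of 12 other settings. A second, nearly as bright probe set of Ncl had 833 ± 239 and 1470 ± 118. It was called (0.87 ± 0.23, adjusted p = 0.0471 over all tested probe sets), while dimmer ones at 0.75, 0.68 and -0.03 were not. Npm1, which encodes nucleophosmin, a histone and ribosome chaperone, had 5300 ± 1090 and 7930 ± 740 (0.60 ± 0.19, adjusted p = 0.0720).

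**Figure D3:**
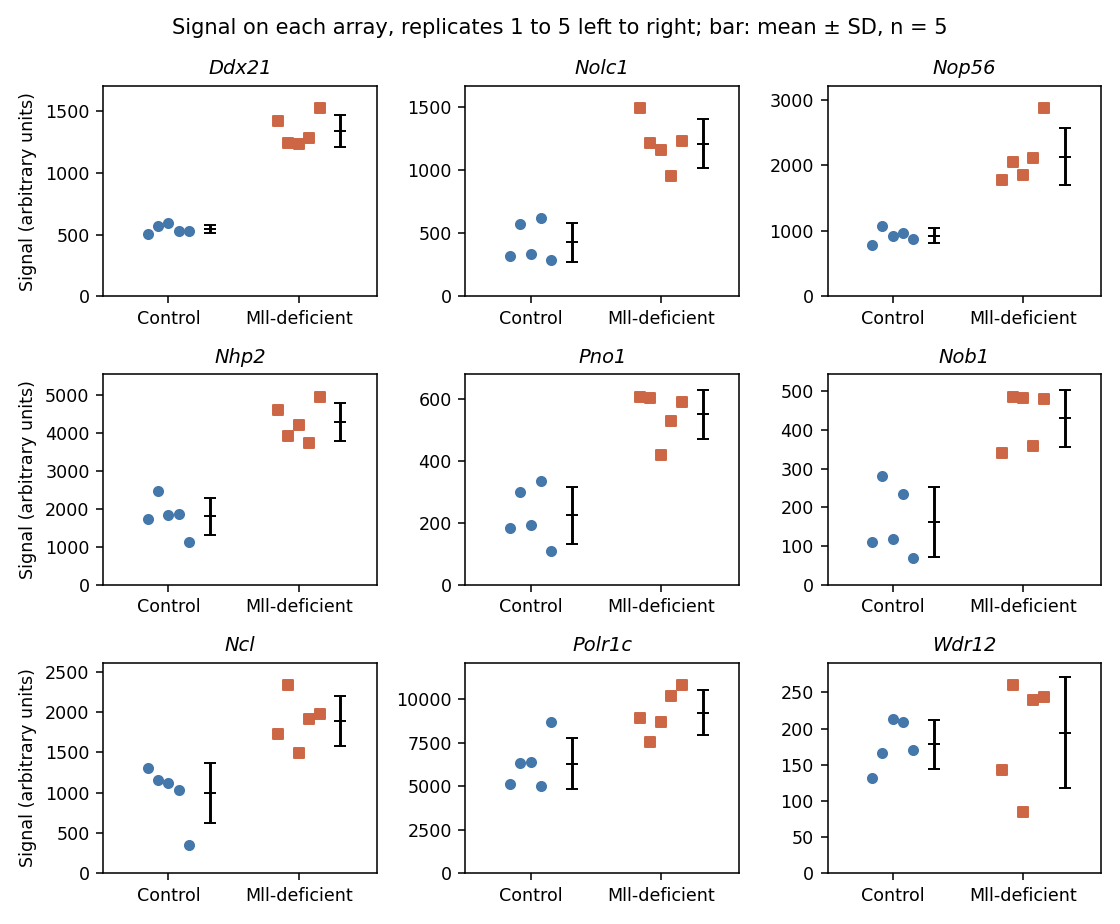
Signal in arbitrary units (vertical axis, from 0) of 9 of the genes on each control (circles) and Mll-deficient array (squares), with mean and SD at the right of each group (n = 5 each). The groups do not overlap for Ddx21, Nolc1, Nop56, Nhp2, Pno1, Nob1 and Ncl, and they do for Polr1c and Wdr12; control replicate 5 is the low point at 353 in Ncl and the high control at 8660 in Polr1c.

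snoRNP proteins rose for most partners but not for all. Of 3 proteins of box C/D snoRNPs, whose RNAs guide methylation of ribosomal RNA, Nop56 and Fbl rose and Nop58 did not pass. Nop56, a scaffold of the particle, read 779, 1080, 928, 972 and 880 in controls and 1780, 2060, 1850, 2120 and 2870 in Mll-deficient mice (1.17 ± 0.19, adjusted p = 0.00241). The array probes of that probe set can match further transcripts (suffix _s_at, as for 11 of the 50 genes with suffix _s_at or _x_at), and the other, dimmer probe set of Nop56 differed by 0.18 ± 0.28, from 181 ± 79.3 to 204 ± 65.8 (adjusted p = 0.792 over all tested probe sets). Fbl, which encodes the methyltransferase fibrillarin, had 1450 ± 419 and 2720 ± 414 without overlap (0.94 ± 0.23, adjusted p = 0.0236). It lost its call with the probe set that has no such suffix (0.77, adjusted p = 0.155). Nop58, the partner of Nop56, read 174, 259, 183, 418 and 188 in controls and 231, 353, 237, 446 and 277 in Mll-deficient mice, which overlap (0.35 ± 0.26, adjusted p = 0.494).

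Of 4 proteins of box H/ACA snoRNPs, whose RNAs guide pseudouridine formation, Nhp2, Gar1 and Nop10 rose. Dkc1, the catalytic subunit dyskerin, did not pass. The 4 proteins also sit in telomerase. Nhp2 read 1730, 2470, 1830, 1860 and 1120 in controls and 4600, 3930, 4210, 3730 and 4950 in Mll-deficient mice. Its difference was 1.28 ± 0.21 (adjusted p = 0.00258), and its other probe set stood at 1.13 ± 0.24 (adjusted p = 0.0168 over all tested probe sets). Gar1 (0.87 ± 0.23, adjusted p = 0.0386) and Nop10 (0.90 ± 0.25, adjusted p = 0.0455) overlapped between the groups, and each lost its call in 8 of 10 leave-one-out fits. A second, much dimmer probe set of Nop10 rose from 67.8 ± 21.1 to 363 ± 130, by 2.14 ± 0.27 (adjusted p = 0.000595), so the size of the rise of Nop10 depends on the probe set. Dkc1 read 1340, 1730, 2060, 1950 and 2130 in controls and 2080, 2570, 1910, 2690 and 2960 in Mll-deficient mice, a difference of 0.41 ± 0.20 (adjusted p = 0.262), and its other probe sets gave 0.43 and 0.55. Whether Nhp2 and Dkc1 changed by different amounts was not tested.

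In the small subunit processome 2 of 14 genes rose and 12 did not pass, although 11 of the 14 had an unadjusted p under 0.05. Over all tested genes, 3.76% were called higher and 10.5% reached an unadjusted p under 0.05 on the higher side. Pno1, a binding protein of the growing small subunit that works with the nuclease Nob1, read 185, 301, 194, 337 and 110 in controls and 608, 604, 421, 531 and 592 in Mll-deficient mice. Every Mll-deficient array was above every control array, with a difference of 1.31 ± 0.26 (adjusted p = 0.00941). Utp20, a large scaffold protein, read 238, 339, 265, 312 and 235 against 466, 722, 461, 564 and 592 (0.97 ± 0.20, adjusted p = 0.0125), again without overlap.

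The other 12 processome genes had differences between 0.16 and 1.06. Wdr75 (0.81 ± 0.24, adjusted p = 0.0575), a subunit of the module that also acts in transcription by RNA polymerase I, was nearest to the threshold. Rrp9, a protein of the U3 snoRNP, read 42.3, 114, 45.8, 31.5 and 11 in controls and 130, 64, 120, 108 and 99.1 in Mll-deficient mice (1.05 ± 0.33, adjusted p = 0.0788). Emg1, a methyltransferase of the small subunit RNA, had an equally large but more variable difference, 1.06 ± 0.38 (adjusted p = 0.114), with 120 in control replicate 5 and 304 in Mll-deficient replicate 4. Nop14, which binds Noc4l, had 0.89 ± 0.35 (adjusted p = 0.154), Utp18 0.55 ± 0.25 and the helicase Ddx10 0.32 ± 0.23. Of the proteins that join the U3 snoRNP with Mphosph10 (0.43 ± 0.20), Imp3 had 308 ± 32.6 and 447 ± 80.2 without overlap (0.51 ± 0.20, adjusted p = 0.149) and Imp4 had 602 ± 215 and 980 ± 186 (0.74 ± 0.25, adjusted p = 0.0995).

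For 3 processome genes the brightest probe set gave the smallest difference. Bms1, a GTPase, read 10700, 11100, 14200, 10800 and 23600 in controls and 14200, 12900, 18000, 14800 and 15600 in Mll-deficient mice on a probe set with suffix _s_at (0.16 ± 0.22, adjusted p = 0.734), whereas its other probe set, at 47.2 ± 20.2 and 95.6 ± 22.2, gave 0.88 ± 0.28 (adjusted p = 0.0967 over all tested probe sets). Noc4l gave 0.78 ± 0.31 (adjusted p = 0.162) on its brightest probe set, with 11000 in control replicate 5 against 2920 to 6390 in the other controls, and 1.19 ± 0.29 and 1.63 ± 0.36 on dimmer ones that were called (adjusted p = 0.0305 and 0.0187 over all tested probe sets). Wdr43 gave 0.40 ± 0.25 (adjusted p = 0.383) and, on a second probe set, 1.0 ± 0.22 (adjusted p = 0.0172 over all tested probe sets). Where a probe set can match further transcripts, its signal may not be that of the named gene alone.

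Of 4 genes of late small subunit maturation, Nob1 and Rrp12 rose. Nob1, the endonuclease that makes the mature end of the small subunit RNA, read 110, 280, 119, 235 and 69.3 in controls and 341, 485, 483, 359 and 479 in Mll-deficient mice, a difference of 1.45 ± 0.30 (adjusted p = 0.0118). It and Pno1, which bind each other on the maturing subunit, were among the 4 largest differences of the 50. Rrp12, an export factor, was dim, with 41.1 ± 6.71 in controls and 83.1 ± 15.8 in Mll-deficient mice (0.79 ± 0.21, adjusted p = 0.0352), and its call was lost in 8 of 10 leave-one-out fits. Ltv1 (0.71 ± 0.22, adjusted p = 0.0763) and Tsr1 (0.46 ± 0.27, adjusted p = 0.363) did not pass.

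Of 13 large subunit assembly genes, 6 rose and 7 did not pass, where 3.76% of tested genes were called higher. Nop2, a cytosine methyltransferase of the large subunit RNA, read 130, 180, 164, 113 and 129 in controls and 410, 292, 387, 198 and 324 in Mll-deficient mice (1.06 ± 0.23, adjusted p = 0.0139), and its groups did not overlap. Noc2l, a nucleolar complex protein, had 511 ± 172 and 1020 ± 118 (1.04 ± 0.24, adjusted p = 0.0188), but its second probe set differed by 0.06 ± 0.23. Ddx18, a helicase, had 1270 ± 415 and 2380 ± 319 (0.94 ± 0.22, adjusted p = 0.0200). Its second probe set also rose, by 1.10 ± 0.21 (adjusted p = 0.00915 over all tested probe sets). Nop16 (1.08 ± 0.28, adjusted p = 0.0359) and Nle1 (0.77 ± 0.22, adjusted p = 0.0479), both large subunit assembly factors, were close to the threshold and lost their calls in 8 and in all 10 leave-one-out fits, and a second probe set of Nop16 was at -0.03 ± 0.23.

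The members of the PeBoW complex, which is needed to process the large subunit RNA, gave unlike values. Bop1 read 236, 453, 232, 281 and 109 in controls and 767, 627, 828, 368 and 505 in Mll-deficient mice, with overlap in 1 array of each group (1.26 ± 0.31, adjusted p = 0.0269). Its call was lost in 5 of 10 leave-one-out fits and with the mean of its probe sets (0.56, adjusted p = 0.248), the other of which was dim and stood at -0.14 ± 0.37. Pes1 had 614 ± 211 and 1030 ± 150 (0.79 ± 0.24, adjusted p = 0.0635). Wdr12 read 132, 166, 214, 209 and 170 in controls and 143, 260, 84.9, 240 and 244 in Mll-deficient mice, the smallest difference of the 50 at 0.04 ± 0.28 (adjusted p = 0.956). A second, nearly as bright probe set of Wdr12 differed by 0.62 ± 0.26 (133 ± 41.5 and 210 ± 56.6, adjusted p = 0.201 over all tested probe sets), so the 2 probe sets of this gene do not give 1 answer. The within-array log2 ratio of Bop1 to Wdr12 ran from -0.58 to 1.37 in controls and from 0.59 to 3.06 in Mll-deficient mice, which overlap. The pair was chosen after its values were seen and was not tested.

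Other large subunit genes that did not pass were Noc3l (0.86 ± 0.25, adjusted p = 0.0543), a partner of Noc2l whose arrays did not overlap, Ebna1bp2 (0.64 ± 0.21, adjusted p = 0.0844), Rrs1 (0.48 ± 0.29), Ddx56 (0.45 ± 0.27) and Rrp1b (0.40 ± 0.20). A dimmer probe set of Rrp1b rose from 89.2 ± 18.4 to 194 ± 27.0, by 1.01 ± 0.21 (adjusted p = 0.0147 over all tested probe sets). Rrs1 was brightest on control replicate 5 among all 10 arrays, at 7900 against 2610 to 4090 in the other controls.

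None of 6 RNA polymerase I genes passed, although 4 had an unadjusted p under 0.05. All 6 differences were above 0, with a median of 0.54. Among all tested genes, 3.76% were called higher, 10.5% had such a p on the higher side and 46.6% were above 0. Polr1e, a subunit with a role in initiation, read 161, 208, 245, 152 and 144 in controls and 256, 271, 289, 282 and 363 in Mll-deficient mice, which did not overlap (0.65 ± 0.21, adjusted p = 0.0805). That probe set has suffix _x_at, and the other, dimmer one of Polr1e gave 0.48 ± 0.26 (adjusted p = 0.337 over all tested probe sets). Polr1c, a subunit shared with RNA polymerase III, had 6300 ± 1470 and 9240 ± 1300 (0.57 ± 0.19, adjusted p = 0.102), with 8660 in control replicate 5 inside the Mll-deficient range. On this probe set, with suffix _s_at, Polr1c was called with quantile normalization, median centring, array weights and the RNA quality covariate. It was also called without control replicate 5 (0.69, adjusted p = 0.0181). The other, much dimmer probe set of Polr1c had 209 ± 27.5 and 290 ± 74.2 and was not called (0.42 ± 0.22, adjusted p = 0.320 over all tested probe sets).

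Of the catalytic core, Polr1b, the second largest subunit, had 122 ± 68.0 and 209 ± 57.7 (0.83 ± 0.33, adjusted p = 0.158) and Polr1a, the largest, had 132 ± 74.3 and 184 ± 59.7 (0.51 ± 0.32, adjusted p = 0.392). Ubtf, the upstream binding factor of ribosomal DNA, had 898 ± 127 and 1260 ± 328 (0.45 ± 0.21, adjusted p = 0.225). Taf1d, of the promoter selectivity complex, read 859, 1410, 1310, 1220 and 3340 in controls and 1720, 1710, 1280, 2390 and 1360 in Mll-deficient mice (0.18 ± 0.30, adjusted p = 0.791), and its 5 other tested probe sets lay between -0.31 and 0.44. Of 9 further RNA polymerase I genes listed for comparison 0 passed in limma, 2 had an unadjusted p under 0.05, and the median was 0.25. That polymerase genes changed less than the processing factors was not tested.

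The other probe sets of the same genes gave a partly separate reading of the same RNA. Of 54 further probe sets, 48 from 32 genes were bright enough to be tested, and 39 of these had a difference above 0 and 9 below. Among them 9 were called higher and 0 lower, where 2.55% of all 22273 tested probe sets were called higher. Those with a mean signal of 50 or above, averaged over the groups, were above 0 for 28 of 30 with a median of 0.72, and the dimmer ones for 11 of 18 with a median of 0.15.

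**Figure D4:**
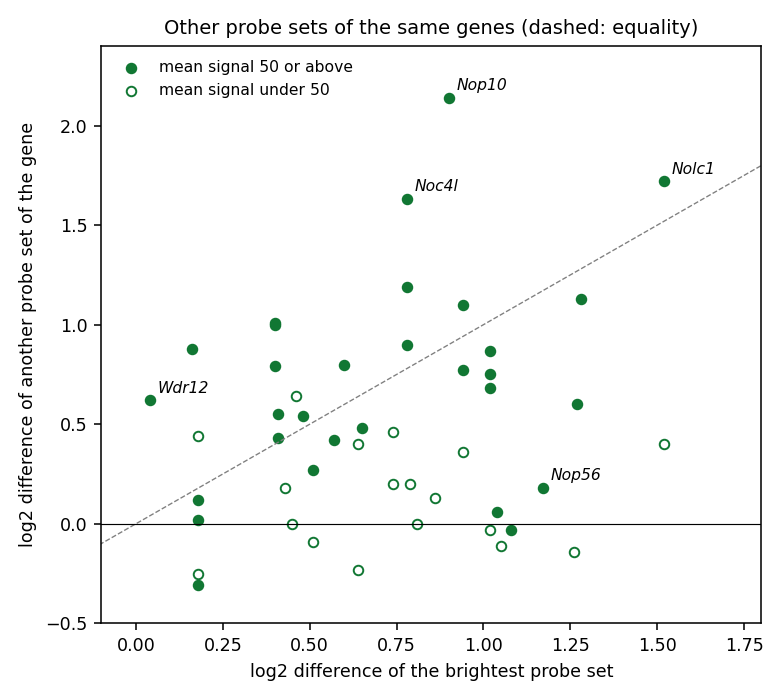
Log2 difference of each of 48 other tested probe sets (vertical axis) against that of the brightest probe set of the same gene (horizontal axis), with filled points for a mean signal of 50 or above and a dashed line at equality. Among filled points, Nop10, Noc4l, Bms1, Rrp1b, Wdr43 and Wdr12 have one well above the line. Nop16, Nop56, Noc2l, Ddx21 and Taf1d have one well below it. The 18 open points have a median of 0.15, and 7 of them have a difference below 0, among them those of Bop1 and Mybbp1a.

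Further genes of the same pathway were counted in the same fit. Of 116 other ribosome biogenesis genes listed, 114 were tested, 18 rose, 0 fell and 96 did not pass, where 3.76% of tested genes were called higher. Of the 114, 101 had a difference above 0, compared with 46.6% of tested genes. The median was 0.45, beside -0.04 for all tested genes. Whether they changed less than the 50 genes was not tested. Called higher were 9 of 42 large subunit factors, 6 of 38 small subunit factors, 3 of 16 nuclear exosome and trimming enzymes, and 0 of 9 snoRNP assembly factors. Of those last 9, 6 had an unadjusted p under 0.05, and their median was 0.66. Over all tested genes, 10.5% had such a p on the higher side. The count of 18 called genes fell to 8 without control replicate 1, without Mll-deficient replicate 1 and without Mll-deficient replicate 5. It fell to 11 without control replicate 3 or 4 and to 10 without Mll-deficient replicate 3.

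**Figure D5:**
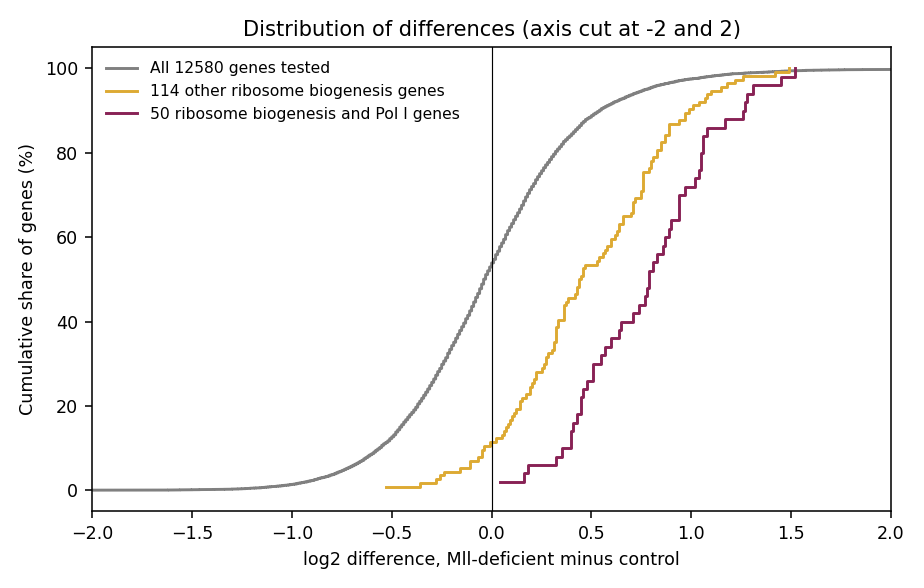
Cumulative share of genes (vertical axis, percent) by log2 difference (horizontal axis) for all 12580 genes tested, the 114 other ribosome biogenesis genes tested and the 50 genes described here. The curve of the 50 genes starts at 0.04 and its middle lies at 0.79, that of the 114 at 0.45 and that of all genes at -0.04.

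Of the 114 other genes tested, 19 had every Mll-deficient array above every control array and 0 had every one below. Over all tested genes these shares were 4.42% and 2.54%. The 8 with the smallest p are named here and are among the 19. They were picked by p in the same fit, so their separation is not a further result. Ccdc86, a nucleolar protein, read 163, 204, 131, 226 and 125 in controls and 520, 382, 578, 404 and 484 in Mll-deficient mice, by 1.42 ± 0.22 (adjusted p = 0.00170). Bysl, a small subunit factor, read 384, 494, 412, 501 and 478 and 1010, 817, 1410, 956 and 1120, by 1.18 ± 0.20 (adjusted p = 0.00282). Wdr46 of the processome (1.08 ± 0.21, adjusted p = 0.00816) and Wdr74 of large subunit assembly (1.26 ± 0.27, adjusted p = 0.0127) rose by similar amounts. The exosome nuclease Dis3 rose from 254 ± 21.7 to 518 ± 91.4 (0.97 ± 0.19, adjusted p = 0.00883). The exosome subunit Exosc4 rose from 666 ± 340 to 1690 ± 303 (1.49 ± 0.33, adjusted p = 0.0154). The processome proteins Utp4 and Pdcd11 rose by 0.87 ± 0.20 (adjusted p = 0.0168) and 1.07 ± 0.24 (adjusted p = 0.0185). Ccdc86, Wdr46 and Exosc4 were read from probe sets with suffix _s_at or _x_at. Without such probe sets Ccdc86 was at 0.92 (adjusted p = 0.0507) and Exosc4 at 0.72 (adjusted p = 0.323), and Wdr46 kept its call at 0.82 (adjusted p = 0.0381).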

How the data were processed

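Per the submitters' processing notes, the authors made the deposited values with MAS5 5.0. They are linear signal intensities per probe set of Affymetrix Mouse Genome 430 2.0 arrays, and each array's mean after trimming 2% at both ends was 150.001, so differences in total RNA per cell are removed. For arrays, their number limits the precision. Of 45101 probe sets, 34958 had 1 gene symbol, 932 several and 9211 none. Symbols were updated by Entrez identifier through RefSeq (GRCm38.p6), which also gave the promoters. Each gene took the probe set with the highest mean log2(intensity + 16), and genes above the 40th percentile of non-control probe sets were tested with limma 3.58.1 in R 4.3.3 (trend, two-sided), with p-values adjusted over 12580 genes. The offset understates fold changes of dim genes. Members, role groups, comparison genes and marker genes were chosen with earlier results of these data known, so lists are described by counts and medians with no test. Named with full statistics were called members, in each role the 2 members with the smallest p and the lowest difference, the 8 listed comparison genes with the smallest p, and Myc; further names were chosen after their values were seen. The main fit did not pair arrays by replicate number, and 0 of 5 control arrays correlated best with the Mll-deficient array of its number. That check does not show whether arrays shared a processing batch. Alternatives changed the offset, normalization, centring, filter, probe set rule, variance prior, array weights, block, RNA quality covariate and arrays; the one without _s_at and _x_at probe sets was chosen after seeing the data.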

Additional observations from a re-analysis of the deposited data

Results flagged for a closer look

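Of 102 groups of 5 arrays examined (each gene in each group, and the mean of the 50 genes), 2 had an array far from the others by Dixon's criterion, or 1.96%, where chance flags about 1 in 20. Ncl read 353 on control replicate 5, against 1030 to 1310 on the other controls. That array also had the highest 3′ to middle ratio, 5.19, and the part of RNA quality in the low value was not tested. Ddx18 read 1840 on Mll-deficient replicate 2, against 2380 to 2630 on the other Mll-deficient arrays.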

How the results depend on the processing

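No gene of the 50 was called lower in any of the 12 alternatives or the 10 fits that left out 1 array. Genes called higher numbered 34 with the 3′ to middle ratio as a covariate and 14 to 24 in the other 11 alternatives, and 10 to 24 with 1 array left out. With the replicate block 17 were called higher, and Rrp12, Nle1 and Myc lost their calls. The correlations of same-numbered arrays ran from -0.228 to 0.277, and 0 of 5 control arrays correlated best with its own number. The mean of all probe sets called 19, of which 14 were called before. The median of the 50 genes was 0.61 with offset 64 and 0.61 with the mean of all probe sets, and 0.74 to 0.82 with 1 array left out. The median of all genes was 0.00 with quantile normalization, 0.03 with median centring, -0.02 with no filter, and -0.04 to -0.02 with 1 array left out. Over all genes, 473 were higher and 221 lower, 971 and 647 with the covariate, 3.74% of genes and 107 with median centring, 585 and 340 with array weights, and 242 to 555 and 74 to 320 with 1 array left out. Other ribosome biogenesis genes called higher were 11 with no filter, 43 with the covariate, 12 without _s_at and _x_at probe sets, and 8 to 23 with 1 array left out, and 1 was called lower with the covariate and 1 without those probe sets. The sign turned, uncalled, for Bms1 with quantile normalization (-0.00), Taf1d with the mean of all probe sets (-0.01) and without control replicate 1 (-0.01), and Wdr12 in 4 fits that left out 1 array. With 1 array left out, Wdr12 ranged from -0.08 to 0.28 and Taf1d from -0.01 to 0.48. The causes were not tested.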
